A study of Rattus norvegicus with 32 samples.

Results

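The interaction of cannabidiol with cue was described across all genes measured in the rat nucleus accumbens shell: the difference that cannabidiol made under an anxiety cue, minus the difference it made under a neutral cue. All 32 libraries of the series entered it, placed by their treatment label into 4 groups of 8, and 17059 of the 34322 gene symbols in the count table had enough reads to be tested. A positive interaction, given as a log2 fold change with its standard error (SE), means that cannabidiol minus vehicle was greater under the anxiety cue. The same number is the cue difference in cannabidiol rats minus the cue difference in vehicle rats.

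Wild-type rats were conditioned with shocks paired with a cue, which was the odour of lemon (the anxiety cue) or a neutral cue, and met that cue again in tests of anxiety. Cannabidiol (CBD, a compound of the cannabis plant that does not intoxicate) or vehicle was given before those tests, and the tissue was taken after a last shock. The groups were CBD with the anxiety cue (CBD-anxiety), vehicle with the anxiety cue (vehicle-anxiety), CBD with the neutral cue (CBD-neutral) and vehicle with the neutral cue (vehicle-neutral). All 4 groups, the vehicle-neutral one included, had been shocked, so none is an unstressed control. The labels give the tissue of a library only as brain and give no sex, age, strain, dose or batch. Nothing in them says whether the libraries are from separate rats, so p-values measure only the spread between these libraries, which may be partly technical.

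The shell lies medially in the ventral striatum, and there GABAergic medium spiny neurons receive glutamate from cortex, hippocampus and amygdala and dopamine from the midbrain, and it takes part in motivated and anxiety-related behaviour. CBD binds the cannabinoid receptors weakly and is known to act on several other receptors, channels and transporters, among them serotonin receptors, TRP channels and fatty acid binding proteins. Neurons meet most of their energy demand through the mitochondrial respiratory chain, whose complexes pass electrons to oxygen and drive ATP synthesis. The title of the study names mitochondrial transcripts and a polyunsaturated fatty acid, and the interaction is the contrast that asks whether the effect of CBD depended on the cue.

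Total counts ranged from 11.65 to 24 M per library. Markers of tissue outside the shell were high in some libraries, and these were spread unevenly over the groups. Slc17a6, a vesicular glutamate transporter of subcortical neurons that striatal neurons mostly lack, was at 20 to 47.0 CPM (read counts scaled to the size of the library) in 6 libraries. The highest of the other 26 had 16.8 CPM. These were 2 CBD-anxiety, 1 vehicle-anxiety, 0 CBD-neutral and 3 vehicle-neutral libraries. Plin1, the coat protein of fat droplets in adipocytes, was at 6.16 to 42.6 CPM in 2 CBD-anxiety, 3 vehicle-anxiety, 0 CBD-neutral and 5 vehicle-neutral libraries, and no higher than 1.99 CPM elsewhere. Alb, the albumin gene of liver, was at 32.4 to 225.6 CPM in 4 CBD-anxiety, 2 vehicle-anxiety, 4 CBD-neutral and 0 vehicle-neutral libraries. In order of deposition, the 10 libraries high in Plin1 and the 10 high in Alb alternated from the first library on. Every library deposited after them was high in neither gene. In the alternating stretch all vehicle-neutral libraries were high in Plin1 and all CBD-neutral ones in Alb. There the order and the drug under the neutral cue cannot be told apart, and the labels name no batch. Postn, a matrix protein of fibroblasts, passed 1.5 CPM in 2 CBD-anxiety, 0 vehicle-anxiety, 0 CBD-neutral and 4 vehicle-neutral libraries. Slc17a7, the vesicular transporter of cortical glutamatergic neurons, reached 877 CPM in 1 CBD-neutral library. Drd1, a dopamine receptor that marks direct-pathway medium spiny neurons, was present in all 32 libraries. Results were recomputed with covariates for tissue composition and without such libraries, and examples of values that moved by over 1.5 times are given beside their genes, though not for every gene. Beyond this the part of these markers in the results was not tested.

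**Figure D1:**
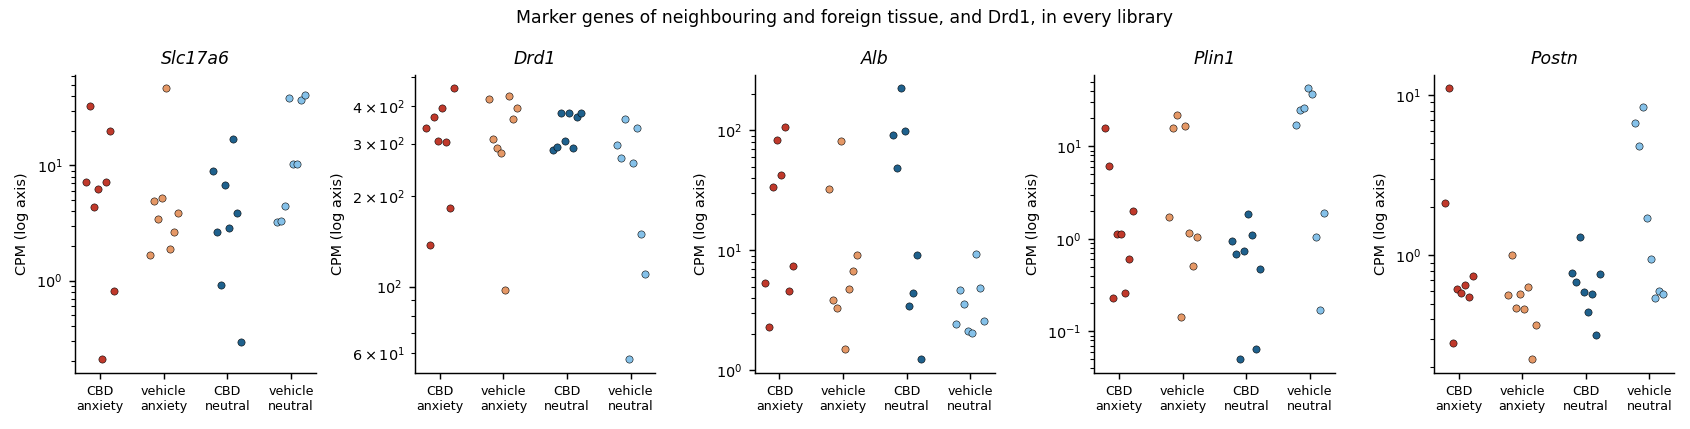
Level of 5 genes in each library, in CPM on log axes, with 1 point per library and 8 libraries per group (a library listed at 0 is drawn at 0.05). Slc17a6 is high in 2 CBD-anxiety, 1 vehicle-anxiety and 3 vehicle-neutral libraries, Plin1 in 2 CBD-anxiety, 3 vehicle-anxiety and 5 vehicle-neutral libraries, Alb is high in 4 CBD-anxiety, 2 vehicle-anxiety and 4 CBD-neutral libraries and in 0 vehicle-neutral ones, and the lowest Drd1 level is in a vehicle-neutral library.

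No gene passed the test of the interaction. With edgeR's quasi-likelihood test and Benjamini-Hochberg adjustment over the 17059 genes, 0 had an adjusted p under 0.05, 0 had one under 0.1, and the smallest adjusted p was 0.321. At an unadjusted p under 0.05 stood 2353 genes (13.8%), of which 1197 (7.02% of those tested) were above 0 and 1156 (6.78%) below 0. At any p, 48.8% of genes were above 0. If no gene differed, about 853 would be expected at that level. The same number holds for each component of the interaction, and their counts lay on both sides of it, from 270 to 3852. The genes share the same libraries, so no excess is read from this number. The median absolute interaction over all genes was 0.18 on the log2 scale and its median SE 0.17, so that a typical gene's interaction was of the size of its error. In simulated data of the same means and library sizes, the model recovered 8% of interactions of 1.3-fold, 26% at 1.5-fold, 84% at 2-fold and 100% at 4-fold. These shares hold for the simulated spread and not for every real gene. In the real libraries Mcub at 2.24 and Postn at 4.02 on the log2 scale had an adjusted p of 0.321 in edgeR.

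The interaction was taken apart into its components in the same edgeR model. For CBD minus vehicle under the anxiety cue, 270 genes (1.58%) had an unadjusted p under 0.05, 0.75% above 0 and 0.832% below, and 0 had an adjusted p under 0.05. The median absolute log2 fold change was 0.061, and 48.3% of genes were above 0. Under the neutral cue the same comparison gave 3852 genes (22.6%). An adjusted p under 0.1 was reached by 324 of them (1.9% of those tested) and one under 0.05 by 0. The median absolute log2 fold change was 0.15, and 50.9% of genes were above 0. For the anxiety cue minus the neutral cue, 672 genes (3.94%) were at that unadjusted p in CBD rats and 2175 (12.7%, with 6.41% above 0 and 6.34% below) in vehicle rats, with 0 past an adjusted p of 0.05 in either. The counts were thus higher in the comparisons that hold the vehicle-neutral libraries. Of the 2353 genes at an unadjusted p under 0.05 in the interaction, 2138 (90.9%) had the larger CBD difference under the neutral cue, against 74.8% of all genes tested. For 1658 of them (70.5%) the vehicle-neutral mean was the farthest from the mean of the other 3 groups. It was the farthest for 51.0% of all genes tested. The CBD-anxiety mean was the farthest for 96 (4.08%), against 12.1% of all genes tested. These shares are descriptions, since the interaction and its components use the same libraries.

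The 10 genes with the smallest p among those above 0 were Mcub, Grifin, Capg, Metrnl, Postn, Tcirg1, Ucp2, Arpc1b, Vsig8 and Nat8f4. All 10 had an adjusted p of 0.321 in edgeR, and their values are given with no claim of change. Mcub encodes a subunit of the mitochondrial calcium uniporter that lowers calcium uptake into the matrix, and had the smallest p of all genes. Its lowest, median and highest levels were 0.403, 1.32 and 1.68 CPM in CBD-anxiety libraries and 0.400, 0.563 and 0.787 CPM in vehicle-anxiety libraries. They were 0.325, 0.586 and 1.20 CPM in CBD-neutral libraries and 0.583, 1.02 and 2.96 CPM in vehicle-neutral libraries. 6 of the 8 CBD-anxiety libraries lay above every vehicle-anxiety library, while 1 of 8 CBD-neutral libraries lay above the median of the vehicle-neutral ones, and both pairs of groups overlapped. The interaction was 2.24 (SE 0.45), made of 1.04 (SE 0.32) under the anxiety cue and -1.20 (SE 0.32) under the neutral cue. It was 1.62 with composition as covariates, 1.31 with liver and fat measures added, 1.41 without the libraries high in Postn or Slc17a6, and 1.06 with composition as covariates in the libraries not high in Plin1. At about 1 CPM this gene rests on few reads per library.

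Ucp2 encodes a carrier of the mitochondrial inner membrane that limits the formation of reactive oxygen species. In CBD-anxiety libraries it was at 18.2, 22.0 and 43.0 CPM (lowest, median and highest), against 16.7, 18.9 and 24.1 CPM in vehicle-anxiety libraries. In CBD-neutral libraries it was at 14.8, 20.7 and 24.9 CPM, against 19.8, 27.1 and 44.5 CPM in vehicle-neutral libraries. 7 of the 8 vehicle-neutral libraries exceeded every CBD-neutral library, and 5 of 8 CBD-anxiety libraries lay above the vehicle-anxiety median. The interaction was 0.93 (SE 0.23). Nat8f4, of a family of N-acetyltransferases with near-identical copies whose reads the counting could have split, averaged 30.6 ± 10.0 CPM in CBD-anxiety and 25.3 ± 4.14 CPM in vehicle-anxiety libraries (SD, n = 8 each). It averaged 22.4 ± 5.19 CPM in CBD-neutral and 36.7 ± 8.59 CPM in vehicle-neutral libraries, with an interaction of 0.98 (SE 0.25) that was 0.55 with composition as covariates.

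Tcirg1, a membrane subunit of the proton pump of lysosomes, averaged 15.2 ± 5.66 CPM in CBD-anxiety, 11.5 ± 1.93 CPM in vehicle-anxiety, 11.2 ± 2.79 CPM in CBD-neutral and 19.4 ± 5.72 CPM in vehicle-neutral libraries (interaction 1.19, SE 0.28). Metrnl encodes the secreted protein meteorin-like and had 5.24 ± 2.51 CPM in CBD-anxiety, 4.03 ± 1.35 CPM in vehicle-anxiety, 3.45 ± 0.581 CPM in CBD-neutral and 6.72 ± 1.65 CPM in vehicle-neutral libraries (interaction 1.34, SE 0.31). In both genes the CBD-neutral and vehicle-neutral means differed by more than 1 SD of either group. The anxiety-cue means differed by less than the SD of the CBD-anxiety group. Without the libraries high in Postn or Slc17a6 the interaction of Tcirg1 was 0.054, and with composition as covariates in the libraries not high in Plin1 that of Metrnl was 0.18.

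Postn, Capg, Vsig8, Arpc1b and Grifin had interactions of 4.02 (SE 0.94), 2.84 (SE 0.66), 3.64 (SE 0.91), 1.15 (SE 0.28) and 3.03 (SE 0.68). Capg, an actin-capping protein abundant in macrophages, had a median of 3.005 CPM and a highest value of 18.7 CPM in CBD-anxiety libraries, against 2.53 and 5.01 CPM in vehicle-anxiety libraries. It had a median of 2.64 CPM and a highest value of 3.97 CPM in CBD-neutral libraries, against 5.601 and 20.7 CPM in vehicle-neutral libraries. In the CBD-anxiety group a single library, number 2, held the highest value of Capg and of Postn (10.7 CPM, against a median of 0.627 CPM over that group). In the vehicle-neutral group 5 libraries in Capg and 4 in Postn exceeded every CBD-neutral library. Leaving out any single library gave interactions of 2.21 to 3.04 for Capg and 2.67 to 4.21 for Postn. With the 6 libraries over 1.5 CPM in Postn left out, a choice made after the data were seen, the interaction of Capg was 0.45, of Vsig8 0.29, of Arpc1b 0.42, of Ucp2 0.40 and of Mcub 2.09.

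Below 0, the 10 genes with the smallest p were Pcdhga4, Gigyf2, Bms1, Jph1, Ncapd3, Ncoa6, Igsf11, Mideas, Pcdhga7 and Zfp407, all at an adjusted p of 0.321 in edgeR. Apart from Jph1, their interactions were smaller in size than all 10 above 0. Gigyf2 encodes a protein that represses translation together with a cap-binding partner. It was at 106.5, 114.5 and 118.3 CPM (lowest, median and highest) in CBD-anxiety libraries and at 116.2, 122.9 and 129.4 CPM in vehicle-anxiety libraries. In CBD-neutral libraries it was at 108.8, 120.6 and 129.9 CPM, and in vehicle-neutral libraries at 97.4, 106.7 and 120.1 CPM. All 8 CBD-anxiety libraries lay below the vehicle-anxiety median, and all 8 CBD-neutral libraries lay above the vehicle-neutral median. The interaction was -0.25 (SE 0.061), from -0.11 (SE 0.043) under the anxiety cue and 0.14 (SE 0.043) under the neutral cue.

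Bms1, a GTPase of small ribosomal subunit assembly, had the same arrangement: 51.8 ± 2.12 CPM in CBD-anxiety, 56.7 ± 3.85 CPM in vehicle-anxiety, 56.0 ± 2.29 CPM in CBD-neutral and 51.5 ± 2.58 CPM in vehicle-neutral libraries (SD, n = 8 each). Here the components were nearly equal in size, at -0.13 (SE 0.044) under the anxiety cue and 0.12 (SE 0.044) under the neutral cue, and the interaction was -0.25 (SE 0.062). Igsf11, a cell adhesion protein of synapses, was like it with -0.16 (SE 0.060) and 0.16 (SE 0.060). For Mideas, a scaffold of a histone deacetylase complex, the levels were 41.4 ± 2.62 CPM in CBD-anxiety, 45.0 ± 2.91 CPM in vehicle-anxiety, 42.7 ± 4.17 CPM in CBD-neutral and 36.9 ± 3.85 CPM in vehicle-neutral libraries, with an interaction of -0.33 (SE 0.089).

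Ncapd3 of the condensin II complex (-0.41, SE 0.10), the nuclear receptor coactivator Ncoa6 (-0.46, SE 0.12), the zinc finger gene Zfp407 (-0.38, SE 0.10) and Jph1, which links the plasma membrane to the endoplasmic reticulum (-1.19, SE 0.30), had their lowest group mean in vehicle-neutral libraries. For Zfp407 the lowest CBD-neutral library, at 22.3 CPM, lay just above the highest vehicle-neutral library, at 22.2 CPM. The share of all genes tested that separate so was not computed. Pcdhga4 (-0.62, SE 0.14) and Pcdhga7 (-0.70, SE 0.19) are adhesion proteins of the gamma protocadherin cluster, whose members share their last exons, so that the counting could have divided their reads in more than 1 way. Jph1 was at -0.69 with composition as covariates. Each of the 10 genes below 0 kept its direction under every other setting and every removal of 1 library. So did 9 of the 10 above 0 wherever they were tested (a filter of 1 CPM in 8 libraries kept 19 of the 20). The exception was Postn, at -0.019 without the 10 libraries high in Plin1 and at -0.015 when measures of tissue composition were added to that. In that setting the interaction was smaller in size by over 1.5 times for 14 of the 20 genes, and without the libraries high in Postn or Slc17a6 it was so for 12. The 20 genes were chosen by their p in these same libraries. A kept direction was therefore likely beforehand and is no independent support for them.

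**Figure D2:**
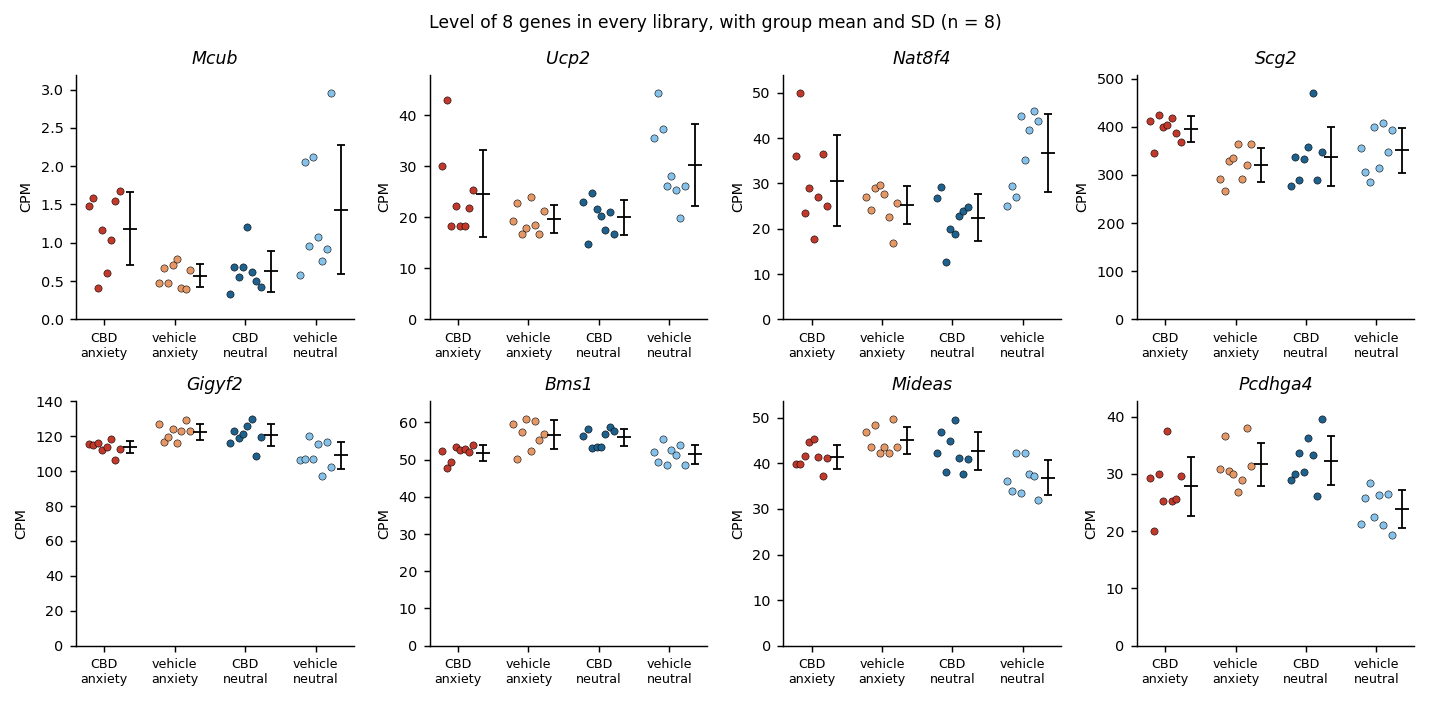
Level of 8 genes in CPM in each library, with 1 point per library, a tick for the group mean and a bar for the SD (n = 8). The vehicle-neutral means of Mcub (1.43 CPM), Ucp2 (30.4 CPM) and Nat8f4 (36.7 CPM) are the highest of the 4 groups and those of Gigyf2, Bms1, Mideas and Pcdhga4 the lowest, while for Scg2 the CBD-anxiety mean (394.9 CPM) stands above the others.

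Scg2 encodes secretogranin II, a protein of dense-core vesicles from which the peptide secretoneurin is cut, and it was among the genes to be named whatever their p. Its lowest, median and highest levels were 346.0, 401.5 and 425.4 CPM in CBD-anxiety libraries, against 266.9, 324.7 and 365.0 CPM in vehicle-anxiety libraries. They were 277.8, 335.1 and 470.8 CPM in CBD-neutral libraries, against 285.7, 352.1 and 408.3 CPM in vehicle-neutral libraries. 7 of 8 CBD-anxiety libraries exceeded every vehicle-anxiety library, while the neutral-cue groups overlapped widely. The CBD difference was 0.30 (SE 0.091) under the anxiety cue and -0.056 (SE 0.091) under the neutral cue, and the interaction was 0.36 (SE 0.13), with an adjusted p of 0.321 in edgeR. It was 0.17 without the libraries high in Alb and 0.62 with composition as covariates in the libraries not high in Plin1. This placed the interaction of Scg2 mainly under the anxiety cue, whereas most genes named above had it mainly under the neutral cue. Pcsk1n, an inhibitor of the convertase that processes such peptides, had an interaction of 0.37 (SE 0.14) made of 0.096 under the anxiety cue and -0.28 under the neutral cue.

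The promoters of Scg2 and Mcub are shown, since the interaction of Scg2 lay mainly under the anxiety cue and that of Mcub had the smallest p. Each runs from 250 bases before to 50 bases after the RefSeq start, on the minus strand of GRCr8, at chr9:88256817-88257116 for Scg2 and chr2:221223765-221224064 for Mcub, and is used here for its letters alone. Capitals mark in Scg2 the palindrome TGACGTCA, the cyclic AMP response element that CREB binds, which starts at position -123 from the start, and in Mcub the shorter core TGACG read on the other strand, at -173. On both strands, TGACGTCA was found in 612 of 33469 rat promoters of this length (1.83%) and TGACG in 7097 (21.2%). Of the 20 genes named above, 18 had a promoter in the table, of which 0 held TGACGTCA and 7 held TGACG. A match of letters does not show a bound site.
Scg2: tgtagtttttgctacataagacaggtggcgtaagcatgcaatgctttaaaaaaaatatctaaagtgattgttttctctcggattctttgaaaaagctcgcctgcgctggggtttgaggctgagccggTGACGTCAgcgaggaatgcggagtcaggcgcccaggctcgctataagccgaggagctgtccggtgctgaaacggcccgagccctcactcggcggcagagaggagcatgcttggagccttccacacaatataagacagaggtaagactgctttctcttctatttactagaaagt
Mcub: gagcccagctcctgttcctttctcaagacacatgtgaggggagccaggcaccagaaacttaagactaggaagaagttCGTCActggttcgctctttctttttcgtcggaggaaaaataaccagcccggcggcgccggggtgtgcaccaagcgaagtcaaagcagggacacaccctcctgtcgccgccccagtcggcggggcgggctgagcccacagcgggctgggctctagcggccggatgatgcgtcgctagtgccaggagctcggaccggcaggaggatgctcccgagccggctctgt

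Genes of the respiratory chain had interactions above 0 with few exceptions, each small and none past the test. Of 36 tested nuclear subunits of complex I, which takes electrons from NADH, 36 were above 0, against 48.8% of all genes tested. Their median was 0.16 and their range 0.0033 to 0.41. At an unadjusted p under 0.05 in edgeR stood 8 above 0 (22.2%, against 7.02% of all genes tested) and 0 below, and 0 passed the adjusted threshold. The mean log2 CPM over the list was 5.73 ± 0.094 in CBD-anxiety, 5.70 ± 0.11 in vehicle-anxiety, 5.71 ± 0.065 in CBD-neutral and 5.84 ± 0.20 in vehicle-neutral libraries (SD, n = 8 each), so the groups overlapped. The list median was 0.037 for CBD under the anxiety cue and -0.13 for CBD under the neutral cue.

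Ndufa8, an accessory subunit of complex I, was at 41.8, 50.1 and 62.0 CPM (lowest, median and highest) in CBD-anxiety libraries and at 40.0, 45.5 and 65.9 CPM in vehicle-anxiety libraries. It was at 44.6, 46.8 and 54.4 CPM in CBD-neutral libraries and at 46.3, 56.3 and 82.5 CPM in vehicle-neutral libraries. 7 of 8 vehicle-neutral libraries exceeded every CBD-neutral library, and the anxiety-cue groups overlapped over most of their range. The interaction was 0.41 (SE 0.15), of which 0.059 came under the anxiety cue and -0.35 under the neutral cue. Ndufc1, another accessory subunit, had an interaction of 0.32 (SE 0.11).

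Complexes II to V, which carry electrons onward and make ATP, had 39 of 40 members above 0, with a median of 0.18. At an unadjusted p under 0.05 were 7 above 0 (17.5%, against 7.02% of all genes) and 0 below. Sdhc, an anchor subunit of complex II, averaged 110.8 ± 12.4 CPM in CBD-anxiety, 107.1 ± 13.3 CPM in vehicle-anxiety, 102.8 ± 7.92 CPM in CBD-neutral and 125.1 ± 19.4 CPM in vehicle-neutral libraries (interaction 0.33, SE 0.12, and 0.15 with composition as covariates). Uqcrfs1, the Rieske iron-sulfur protein of complex III, averaged 70.5 ± 5.95 CPM in CBD-anxiety, 65.6 ± 4.34 CPM in vehicle-anxiety, 68.6 ± 6.31 CPM in CBD-neutral and 75.9 ± 9.09 CPM in vehicle-neutral libraries. Its interaction of 0.25 (SE 0.096) was made of 0.10 and -0.15. Cox4i1 of complex IV had an interaction of 0.20 (SE 0.12, unadjusted p = 0.0949 in edgeR).

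Of the other mitochondrial lists, those of the ribosome and the tricarboxylic acid cycle lay above 0 for most members, and the remaining lists were closer to the 48.8% of all genes. Among 73 mitochondrial ribosomal proteins, which translate the mitochondrial genome, 65 were above 0 (median 0.14). At an unadjusted p under 0.05 were 12 above 0 (16.4%) and 0 below, with Mrps23 at 0.34 (SE 0.095) and Mrpl41 at 0.32 (SE 0.11). All 21 tested genes of the tricarboxylic acid cycle were above 0 (median 0.14, 3 and 0), with Idh3g, a subunit of isocitrate dehydrogenase, at 0.21 (SE 0.093). Sdhc, counted above with complexes II to V, is the highest member of this list and among those 3, so the lists overlap. Of 35 genes of mitochondrial dynamics, import and biogenesis, 22 were above 0 (median 0.085, 3 and 1), and the fission genes Fis1 and Mff were at 0.30 (SE 0.12) and 0.20 (SE 0.088). Of 12 genes of mitochondrial calcium and ion transport, 7 were above 0 (median 0.14, 2 and 1), among them Mcub and the outer membrane channel Vdac2 at 0.22 (SE 0.084). With composition as covariates the median of the dynamics list was 0.040 and that of the calcium list 0.0015.

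These medians rested in part on single libraries. Leaving out vehicle-neutral library 6 gave 0.11 in complex I, 0.097 in complexes II to V and 0.075 in the mitochondrial ribosome. Without vehicle-neutral library 4, that of the tricarboxylic acid cycle was 0.076, and it was 0.053 with measures of tissue composition as covariates and 0.018 with liver and fat measures added. Without the libraries high in Plin1 the complex I median was 0.32, and without those high in Postn or Slc17a6 it was 0.39.

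Several lists outside the mitochondrion also had most members above 0. Of 76 cytosolic ribosomal proteins, 74 were above 0 (median 0.17). At an unadjusted p under 0.05 were 5 above 0, or 6.58%, which is no more than the 7.02% of all genes, and 0 below, and the median was 0.062 without vehicle-neutral library 6. Their near-identical copies make these counts uncertain. Of 38 proteasome subunits, 35 were above 0 (median 0.13, 6 and 0), with a median of 0.067 without the same library. Of 30 genes for chaperones and the response to unfolded proteins, 27 were above 0 (median 0.18, 9 and 0), and the median was 0.092 with composition as a covariate. Pdia3, a disulfide isomerase of the endoplasmic reticulum, averaged 238.8 ± 9.74 CPM in CBD-anxiety, 223.2 ± 16.9 CPM in vehicle-anxiety, 230.1 ± 12.9 CPM in CBD-neutral and 250.5 ± 20.1 CPM in vehicle-neutral libraries (interaction 0.22, SE 0.075), and Hyou1, a chaperone of the same compartment, was at 0.24 (SE 0.086). Of 29 antioxidant genes, 24 were above 0 (median 0.18, 8 and 0). Gpx3, a secreted glutathione peroxidase, had the largest interaction of these at 2.01 (SE 0.54), from 20.3 ± 12.0 CPM in CBD-anxiety, 16.4 ± 12.5 CPM in vehicle-anxiety, 10.9 ± 2.84 CPM in CBD-neutral and 35.5 ± 27.5 CPM in vehicle-neutral libraries. It was 0.66 once tissue composition was a covariate.

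**Figure D3:**
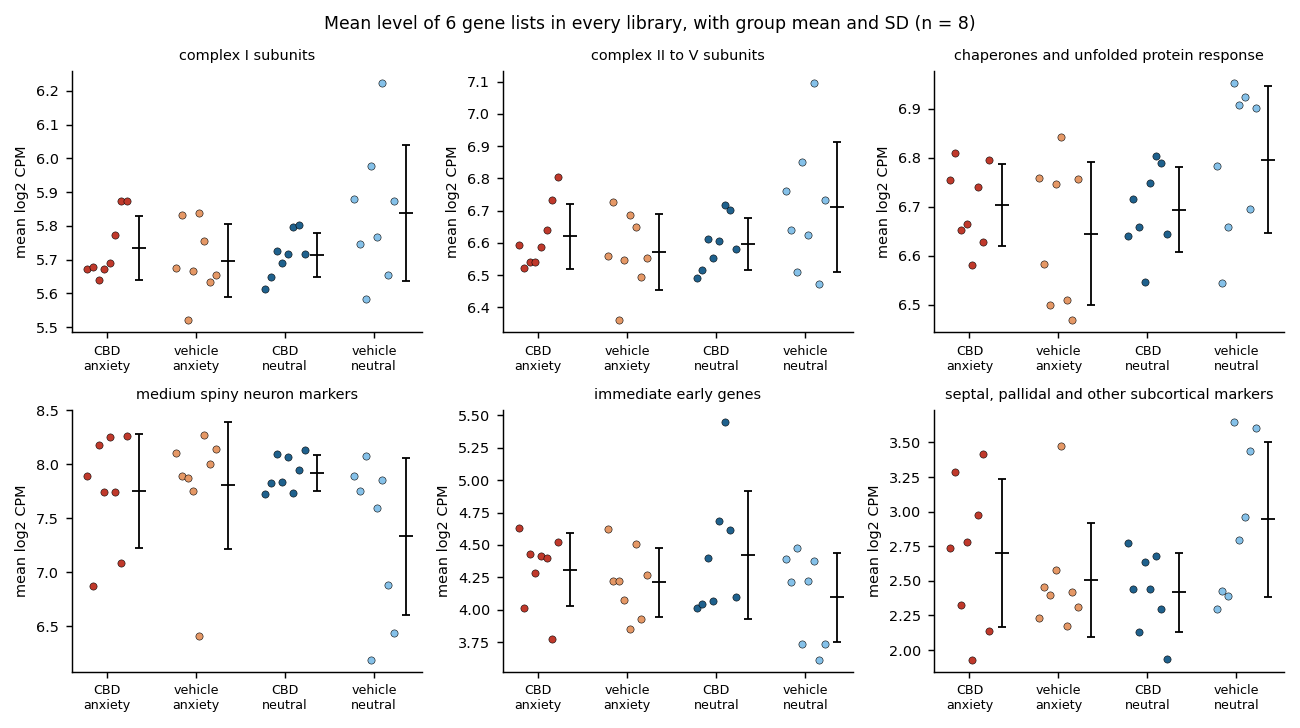
Mean log2 CPM over the tested members of 6 gene lists in each library, with 1 point per library, a tick for the group mean and a bar for the SD (n = 8). The vehicle-neutral group has the highest mean for complex I (5.84), complexes II to V, chaperones and subcortical markers (2.94) and the lowest for medium spiny neuron markers (7.33) and immediate early genes (4.10), and the groups overlap in every panel.

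The genes of polyunsaturated fatty acid metabolism, which includes the desaturation of linoleic acid, were less uniform. Of 39 tested, 25 were above 0, the median was 0.10, and 4 above and 1 below 0 had an unadjusted p under 0.05 in edgeR. The median was 0.0025 with composition as a covariate. Fads1 and Fads2 encode the desaturases that act on linoleic acid and its products. Fads1 averaged 133.6 ± 19.1 CPM in CBD-anxiety, 129.9 ± 14.2 CPM in vehicle-anxiety, 140.6 ± 15.3 CPM in CBD-neutral and 149.2 ± 28.2 CPM in vehicle-neutral libraries, and its interaction of 0.13 (SE 0.14) was below its error. For Fads2 the interaction was -0.18 (SE 0.22), and it was 0.10 without CBD-neutral library 3, a library high in Alb. Acot7, a thioesterase that releases free fatty acids, was at 0.56 (SE 0.21), and Scd2, a desaturase of saturated fatty acids, at 0.18 (SE 0.11). Of 26 genes of beta oxidation, 14 were above 0 (median 0.015). Of 24 genes of cholesterol synthesis, 19 were above 0 (median 0.18, 1 above and 1 below at an unadjusted p under 0.05), but the median was -0.018 with composition as a covariate.

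In the endocannabinoid system, 13 of 19 genes were above 0, the median was 0.16, and 5 above and 2 below 0 had an unadjusted p under 0.05. Without CBD-anxiety library 3 the median was 0.068. Abhd12 and Abhd6, serine hydrolases that break down 2-arachidonoylglycerol, pointed in opposite directions. Abhd12 averaged 163.4 ± 10.7 CPM in CBD-anxiety, 155.3 ± 10.9 CPM in vehicle-anxiety, 157.9 ± 5.96 CPM in CBD-neutral and 176.0 ± 13.8 CPM in vehicle-neutral libraries, with an interaction of 0.23 (SE 0.073). Abhd6 averaged 67.8 ± 6.10 CPM in CBD-anxiety, 73.7 ± 10.0 CPM in vehicle-anxiety, 77.0 ± 4.599 CPM in CBD-neutral and 65.4 ± 9.11 CPM in vehicle-neutral libraries, with an interaction of -0.35 (SE 0.12) that was -0.12 with composition as covariates. Cnr1, the main cannabinoid receptor of brain, had an interaction of 0.56 (SE 0.52) that was 1.18 without CBD-neutral library 6 and 0.195 without vehicle-neutral library 4. Fabp5, a fatty acid binding protein that carries anandamide, was at 0.66 (SE 0.25), and Faah, the hydrolase of anandamide, at -0.23 (SE 0.12). Of 24 other reported targets of CBD, 15 were above 0 (median 0.045, 3 above and 1 below). Among them the serotonin receptors Htr1a and Htr2a were at 1.72 (SE 0.76) and -0.65 (SE 0.26), with Htr1a at medians of 2.33 CPM in CBD-anxiety, 1.39 CPM in vehicle-anxiety, 1.22 CPM in CBD-neutral and 2.79 CPM in vehicle-neutral libraries.

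**Figure D4:**
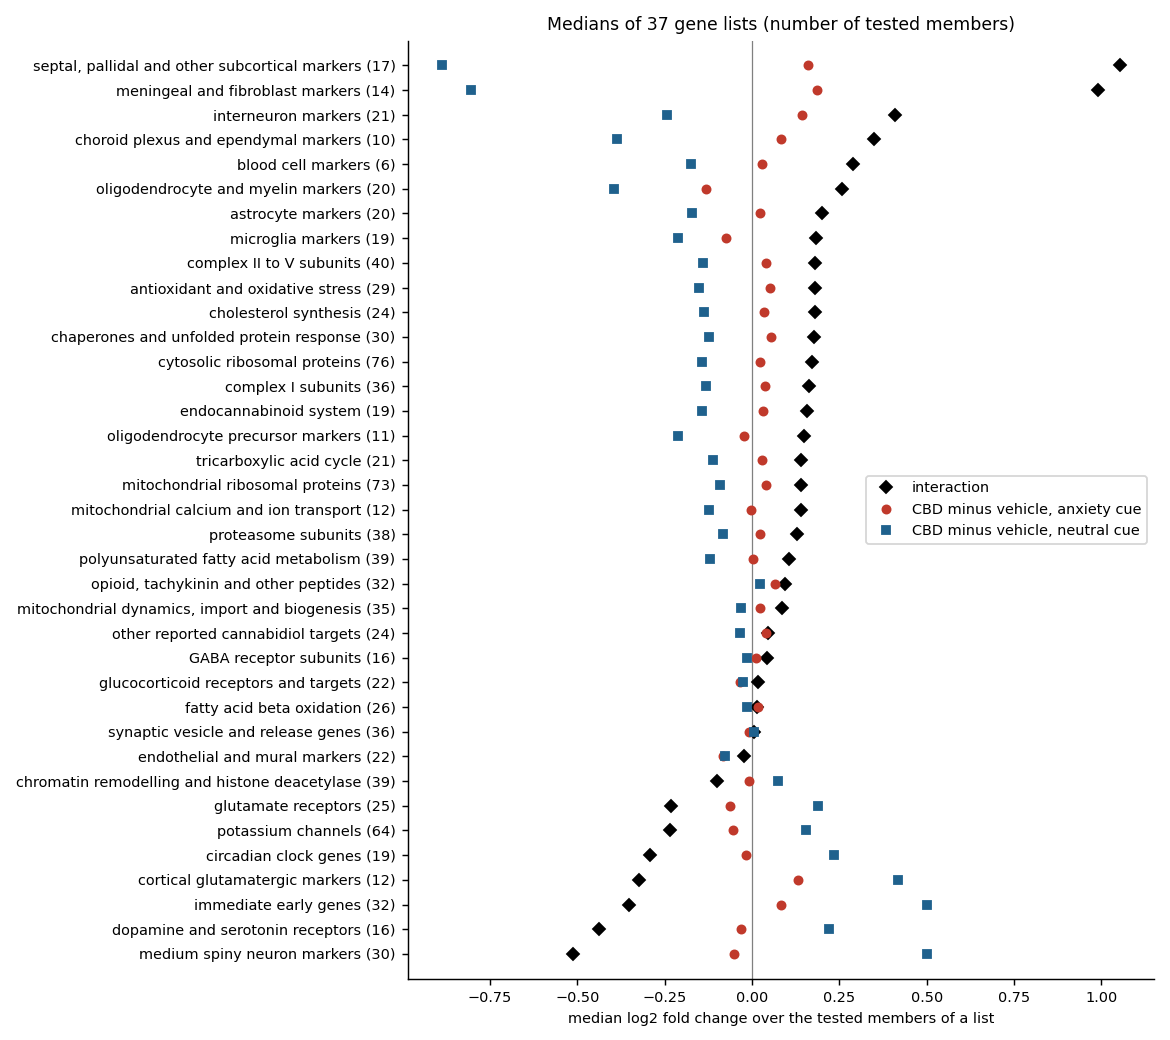
Median log2 fold change of 37 gene lists for the interaction (black), for CBD minus vehicle under the anxiety cue (red) and under the neutral cue (blue), with the number of tested members in brackets. The anxiety-cue medians run from -0.13 to 0.19, while most of the larger interaction medians stand opposite a neutral-cue median of the other sign. The hepatocyte (-2.47) and adipocyte (1.77) lists are not drawn.

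Markers of medium spiny neurons lay below 0, which was not so of every neuronal list. All 30 markers of medium spiny neurons were below 0, with a median of -0.51. At an unadjusted p under 0.05 were 0 above and 1 below, or 3.33%, which is no more than the 6.78% of all genes. Drd1 was at 132.5, 318.9 and 474.8 CPM (lowest, median and highest) in CBD-anxiety libraries and at 94.8, 340.1 and 438.8 CPM in vehicle-anxiety libraries. It was at 278.2, 337.9 and 393.7 CPM in CBD-neutral libraries and at 56.6, 258.0 and 361.8 CPM in vehicle-neutral libraries. The 4 groups overlapped, and the spread was narrowest in CBD-neutral libraries. The interaction of Drd1 was -0.63 (SE 0.41), that of the indirect-pathway receptor Drd2 -0.49 (SE 0.39), and that of the transcription factor Bcl11b -0.62 (SE 0.29). In bulk tissue, fewer cells of a type and less RNA per cell cannot be told apart.

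Markers of subcortical tissue beside the shell, and those of interneurons, mostly lay the other way. Of 17 markers of septum, pallidum and other subcortical regions, 13 were above 0 (median 1.05, 8 above and 1 below at an unadjusted p under 0.05). Their summed level ranged over 180.3 to 314.0 CPM in CBD-anxiety, 160.0 to 359.5 CPM in vehicle-anxiety, 157.5 to 265.2 CPM in CBD-neutral and 165.6 to 378.7 CPM in vehicle-neutral libraries. Of 21 interneuron markers 15 were above 0 (median 0.41, 10 and 2), among them Gbx1 (2.87, SE 0.95) and Lhx8 (1.61, SE 0.54), transcription factors of basal forebrain neurons. With composition as covariates the median of medium spiny neuron markers was 0.13 and that of interneuron markers 0.088. The interneuron list shares Gbx1, the highest interaction in both, with the subcortical list, which is itself a covariate. The lower interneuron median was therefore in part fixed beforehand, and the lists are not separate. Without the 6 libraries high in Slc17a6 the medians of medium spiny neuron and interneuron markers were -0.061 and 0.16. Cortical glutamatergic markers had 2 of 12 above 0 (median -0.32, and 0.056 without CBD-neutral library 6), and choroid plexus and ependymal markers 6 of 10 (median 0.35). The complex I median was 0.15 with those covariates.

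Dopamine and serotonin receptors had 5 of 16 members above 0 (median -0.44), and glutamate receptors 8 of 25 (median -0.23, 1 above and 7 below at an unadjusted p under 0.05, or 28% below against 6.78% of all genes). Grin2b, a subunit of NMDA receptors, averaged 349.8 ± 66.7 CPM in CBD-anxiety, 389.1 ± 83.3 CPM in vehicle-anxiety, 413.9 ± 54.9 CPM in CBD-neutral and 295.1 ± 79.1 CPM in vehicle-neutral libraries (interaction -0.64, SE 0.22). Gria3, of AMPA receptors, was at -0.61 (SE 0.22). With composition as a covariate the median was -0.12 for glutamate receptors and -0.0016 for dopamine and serotonin receptors.

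Of 32 immediate early genes, which neurons switch on within minutes of activity, 8 were above 0 (median -0.35, 1 above and 1 below at an unadjusted p under 0.05). The median was -0.097 without CBD-neutral library 6, the library high in Slc17a7, and 0.0042 with composition as covariates. Egr1 was at 38.0, 85.3 and 108.9 CPM (lowest, median and highest) in CBD-anxiety, 37.0, 77.0 and 112.0 CPM in vehicle-anxiety, 66.2, 80.8 and 182.5 CPM in CBD-neutral and 25.4, 66.0 and 88.5 CPM in vehicle-neutral libraries. Its interaction was -0.66 (SE 0.36), and -0.12 with composition as covariates, that of Arc -0.70 (SE 0.57) and that of Fos 0.30 (SE 0.39). The groups of these 3 genes overlapped.

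Among 22 glucocorticoid receptors and target genes, 12 were above 0 (median 0.016). At an unadjusted p under 0.05 were 4 above 0 (18.2%, against 7.02% of all genes) and 3 below (13.6%, against 6.78%). The mineralocorticoid receptor Nr3c2, which binds corticosterone with high affinity, was at -0.46 (SE 0.16) and the receptor's co-chaperone Fkbp4 at 0.27 (SE 0.094). Of 19 circadian clock genes, 2 were above 0 (median -0.29), and at that p were 0 above and 5 below (26.3%). The repressor Cry2 was at -0.35 (SE 0.11), and the clock median was -0.11 with composition as a covariate. Of 39 genes of chromatin remodelling and histone deacetylase complexes, 9 were above 0 (median -0.10). At that p were 1 above (2.56%) and 10 below (25.6%). Among those below was Arid1a, a subunit of the SWI/SNF remodeller, at -0.32 (SE 0.10). The chromatin median was -0.064 without vehicle-neutral library 6.

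Of the 39 lists, the hepatocyte and adipocyte markers had the medians farthest from 0. All 13 tested hepatocyte markers were below 0 (median -2.47, 0 above and 7 below at an unadjusted p under 0.05), and their summed level reached 372.1 CPM in CBD-anxiety, 395.7 CPM in vehicle-anxiety, 1170 CPM in CBD-neutral and 86.1 CPM in vehicle-neutral libraries. Of 11 adipocyte markers 10 were above 0 (median 1.77), with a highest sum of 105.5 CPM in CBD-anxiety, 146.1 CPM in vehicle-anxiety, 126.5 CPM in CBD-neutral and 249.7 CPM in vehicle-neutral libraries. Of 14 meningeal and fibroblast markers, which include Postn and Capg, 11 were above 0 (median 0.99, 8 and 0), with a highest sum of 416.7 CPM in CBD-anxiety, 299.4 CPM in vehicle-anxiety, 225.6 CPM in CBD-neutral and 405.3 CPM in vehicle-neutral libraries. Without the libraries high in Plin1 the meningeal median was -0.015. Plin1 was at 0 in 1 or more CBD-neutral libraries, and Lep, the leptin gene of adipocytes, at 0 in 1 or more libraries of each group.

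The count of genes past the threshold depended on which libraries entered. Without the 10 libraries high in Plin1, 1475 of 17565 genes tested passed at an adjusted p under 0.05 in edgeR, 815 above 0 and 660 below. Of these, 12 were among the 20 named above. That left 6 CBD-anxiety, 5 vehicle-anxiety, 8 CBD-neutral and 3 vehicle-neutral libraries, and 2 of those 3 vehicle-neutral libraries were high in Slc17a6. All 3 were deposited after the last library high in Plin1 or Alb, while 4 of the 8 CBD-neutral libraries were high in Alb and deposited before it. The part of this in the count was not tested. With composition as covariates in the same 22 libraries, 0 genes passed and 1103 had an unadjusted p under 0.05. Without vehicle-anxiety library 5, which is high in Slc17a6 and Plin1, 10 genes passed and 3940 had an unadjusted p under 0.05, and 0 passed on leaving out any other single library. DESeq2 on all 32 libraries gave a p-value for 28920 genes and adjusted over those that its own filter kept, a number not recorded. It called 12 genes, 11 above 0 and 1 below. Of these, 8 were among the 20: Mcub, Grifin, Capg, Metrnl, Postn, Tcirg1, Vsig8 and Gigyf2. The 20 were chosen by their p in a fit that held the same libraries, so both overlaps were likely beforehand.

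**Figure D5:**
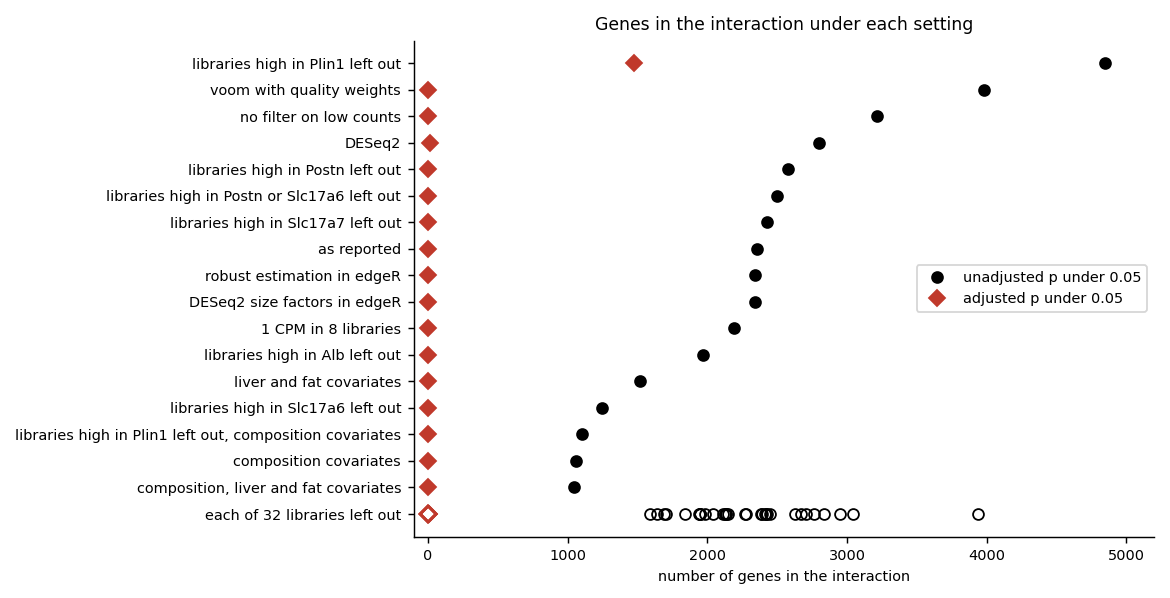
Number of genes in the interaction at an unadjusted p under 0.05 (black circles) and at an adjusted p under 0.05 (red diamonds) under each setting, with open symbols in the lowest line for each of the 32 libraries left out in turn. The adjusted count is 0 in most settings and 1475 without the libraries high in Plin1, and the unadjusted count runs from 1046 to 4850.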

How the data were processed

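PolyA-selected RNA was sequenced by a service laboratory on an Illumina instrument after extraction with a Zymo kit, per the labels' protocols. The authors deposited whole-number counts of reads per gene symbol, made with STAR and featureCounts per the submitters' processing notes, which also list DESeq2 and the builds mRatBN7.2 and Rnor_6.0. The sources used here give neither versions nor the use of strand, which leaves overlapping genes and near-identical copies uncertain. No 2 libraries were alike within sampling noise: chi-square values of counts (genes with 10 or more) were 5.24 to 102.7 per degree of freedom over 112 pairs within groups.

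The counts were tested in edgeR 4.0.16 (R 4.3.3): filterByExpr kept 17059 genes, TMM scaled the libraries, and a quasi-likelihood model with 1 mean per group was fitted to all 32 (common biological coefficient of variation 0.215). Contrasts gave the interaction and its components, with Benjamini-Hochberg adjustment over all genes tested and a threshold of 0.05. CPM are TMM-scaled, except for the marker libraries, where they are counts over total counts. Log2 CPM has a prior count of 2. The SE of a log2 fold change is its size divided by the square root of the quasi-likelihood F statistic. It is therefore no separate measure beside the p-value. List medians are over log2 fold changes, with no test of the list. Counts of list members at an unadjusted p under 0.05 stand against 7.02% above 0 and 6.78% below 0 of all genes tested. The script was tested on simulated data with 50 genes changed at each of 4 folds: 3 of 112 calls (2.68%) were false.

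Genes were named by a rule: the 10 above 0 and 10 below 0 with the smallest p if fewer than 10 passed, the 2 members of each list with the smallest p, and a preset group including Scg2, Fads1, Cnr1 and Drd1. Names known only by locus were counted and not named. Members, lists and settings were chosen with earlier results of these data known, and the thresholds on Postn after the data were seen. Libraries are numbered in order of deposition, which pairs none. Alternatives were DESeq2 1.42.0, its size factors, robust estimation, voom with quality weights (limma 3.58.1), no filter, a filter of 1 CPM in 8 libraries, covariates for composition (4 list levels: subcortical, cortical, choroid plexus and oligodendrocyte markers) and for liver and fat (2 list levels), removal of marked libraries, and removal of each library. Promoters are from RefSeq. Ttr and the genes of the mitochondrial genome are not analysed here.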

Additional observations from a re-analysis of the deposited data

Results flagged for a closer look

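The 4 groups were searched in 30 genes for a library far from the other 7, by the gap to its nearest neighbour over the range of the group, and 16 of the 120 groups held one. The cut would flag about 1 in 20 groups of independent, normally distributed values. These 30 genes share the same libraries and many were chosen by their p, so no comparison with chance is drawn. 10 of the 16 were in 2 libraries. CBD-anxiety library 2 stood high in Capg (18.7 CPM), Metrnl (10.7 CPM), Postn (10.7 CPM) and Vsig8 (5.84 CPM), and it was high in Slc17a6, Plin1 and Postn among the marker genes. Vehicle-anxiety library 5 stood high in Metrnl (7.14 CPM), Vsig8 (0.900 CPM), Gpx3 (46.2 CPM) and Cnr1 (111.1 CPM), and low in Igsf11 (61.9 CPM) and Drd1 (94.8 CPM), and it was high in Slc17a6 and Plin1. Vehicle-neutral library 4 stood high in Grifin (11.7 CPM, next 3.02 CPM) and Gpx3 (97.7 CPM), and it was high in Slc17a6, Plin1 and Postn. CBD-neutral library 6 stood high in Scg2 (470.8 CPM, next 357.7 CPM) and Cnr1 (283.7 CPM, next 67.8 CPM), and it was the library at 877 CPM of Slc17a7. CBD-neutral library 5 stood high in Mcub (1.20 CPM), and CBD-neutral library 7 in Igsf11 (79.95 CPM).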

How the results depend on the processing

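The count of genes past the adjusted threshold was 0 in edgeR and 12 in DESeq2, 1475 without the libraries high in Plin1, and 0 to 10 on leaving out each library in turn. It was 0 under the other settings. The count at an unadjusted p under 0.05, 2353, was 3981 with voom and quality weights, 1060 with composition covariates, 1521 with liver and fat covariates, 1046 with both, 1246 without the libraries high in Slc17a6, 4850 without those high in Plin1, and 1103 with composition covariates added to the last. Leaving out single libraries gave 1589 (without vehicle-neutral library 4) to 3940 (without vehicle-anxiety library 5). The cause of these differences was not tested. Of 608 list medians over 16 alternatives, 41 turned in sign, among which dopamine and serotonin receptors were at 0.036 with all covariates, oligodendrocyte precursors at -0.025 with all covariates, and GABA receptor subunits at -0.089 and peptides at -0.079 without the libraries high in Alb. Single genes that turned in sign, none of them past the threshold, were as follows. With composition covariates Drd1 was at 0.15, Drd2 at 0.19, Arc at 0.21, Adora2a at 0.29, Penk at 0.42 and Fos at -0.011. With liver and fat added, Bcl11b was at 0.0053, Drd1 at 0.26, Drd2 at 0.27, Arc at 0.11, Adora2a at 0.40, Penk at 0.49, Cnr1 at -0.036 and Fos at -0.099. Without the libraries high in Slc17a6, Drd2 was at 0.013, Adora2a at 0.038, Penk at 0.20 and Cnr1 at -0.22, and with those high in Postn left out as well Penk was at 0.13 and Cnr1 at -0.084. Without the libraries high in Plin1 Postn was at -0.019. With composition covariates there, Postn was at -0.015, Bcl11b at 0.082, Drd1 at 0.056, Drd2 at 0.23, Adora2a at 0.099 and Penk at 0.24. Slc17a7 was at 0.32 with voom and at -4.57 to 0.69 on leaving out single libraries, the highest without CBD-neutral library 6. Fads1 was at -0.016 with voom and -0.038 without the libraries high in Postn. Fads2 was at 0.22 without those high in Alb and at -0.25 to 0.10 on leaving out single libraries, the highest without CBD-neutral library 3. No paired analysis was possible because the library numbers only follow the order of deposition. In simulations of this design 26% of interactions of 1.5-fold were recovered, so smaller ones would mostly be missed. Larger estimates in the real libraries, such as 4.02 on the log2 scale for Postn, did not pass in edgeR either.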

Other observations

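Glial markers lay above 0 in the interaction, with 0 genes past the adjusted threshold in edgeR. Of 20 markers of oligodendrocytes and myelin, 19 were above 0 (median 0.26, 2 above and 0 below at an unadjusted p under 0.05). The lineage factor Olig2 averaged 51.8 ± 9.35 CPM in CBD-anxiety, 52.3 ± 13.5 CPM in vehicle-anxiety, 44.0 ± 7.19 CPM in CBD-neutral and 63.0 ± 8.41 CPM in vehicle-neutral libraries (SD, n = 8 each), with an interaction of 0.50 (SE 0.18). Its highest CBD-neutral library, at 53.05 CPM, lay just below its lowest vehicle-neutral library, at 54.42 CPM. The share of all genes tested that separate in this way was not computed. Mbp, a main protein of myelin, was at 0.32 (SE 0.22). Of 20 astrocyte markers 16 were above 0 (median 0.20, 4, or 20%, and 0), with the gap junction gene Gjb6 at 0.97 (SE 0.32). Of 19 microglia markers 17 were above 0 (median 0.18, 2, or 10.5%, and 0), with Selplg at 0.47 (SE 0.19). Oligodendrocyte precursor markers had 10 of 11 above 0 (median 0.15, and 0.011 with composition as a covariate) and blood cell markers 5 of 6 (median 0.29). Endothelial and mural markers had 8 of 22 above 0 (median -0.022) and 0 at an unadjusted p under 0.05. Without the 6 libraries high in Slc17a6 the astrocyte median was 0.064 and the oligodendrocyte median 0.10.

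Genes of synaptic release had no common direction: 19 of 36 were above 0 (median 0.0042, 4 above and 5 below at an unadjusted p under 0.05 in edgeR). Within the list, Syt7, a calcium sensor of vesicle fusion, was at -0.37 (SE 0.12) and Sncg, a synuclein, at 3.18 (SE 0.88), with a median Sncg level of 1.80 CPM in CBD-anxiety, 1.21 CPM in vehicle-anxiety, 0.799 CPM in CBD-neutral and 7.02 CPM in vehicle-neutral libraries. Of 64 potassium channel genes 23 were above 0 (median -0.24, 8 and 9), and the median was -0.11 without CBD-neutral library 6. Kcnj16, an inward rectifier, was at 2.05 (SE 0.68). GABA receptor subunits had 8 of 16 above 0 (median 0.044, 3 and 1). Opioid, tachykinin and other peptide genes had 17 of 32 above 0 (median 0.096, 5 and 1).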
